A study of Mus musculus with 6 samples.

Results

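Transcripts of the complement system in mouse liver were followed through 33 genes, chosen by symbol and matched through mm10 gene names to the Ensembl IDs of the count tables, out of 43346 genes counted. By their main source they comprised 21 genes made by hepatocytes, 7 made by Kupffer cells (the resident macrophages of the liver) or other macrophages, and 5 made mainly by other or by many cell types. All 33 were found in the tables. The RNA-seq counts came from 3 libraries labelled DKO, from livers whose hepatocytes are described as lacking both β-catenin (Ctnnb1) and γ-catenin (Jup), and from 3 Control libraries. Both groups were whole liver of C57BL6 mice aged 3 months. The labels give neither the Cre driver and alleles of the DKO mice nor a genotype for Control beyond that word. They number the libraries within each group without saying that each is a separate animal, so the p-values below measure only the spread between these libraries.

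The complement system is a cascade of plasma proteins that marks microbes and damaged cells for removal, and hepatocytes secrete most of it. The classical pathway starts when C1q binds antibody and activates the proteases C1r and C1s. The lectin pathway starts when collectins or ficolins bind sugars and activate the MASP proteases, and the alternative pathway amplifies through factors B and D and properdin. All 3 routes cleave C3 and then C5, which releases the peptides sensed by the C3a and C5a receptors of myeloid cells and assembles C6 to C9 into a membrane pore, while a set of inhibitors protects host cells.

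The promoters of these genes show which of them share letters of liver or myeloid regulators, and a few are printed to set hepatocyte-made genes beside Kupffer-made ones. Each is the 250 bases before the start of the gene in the RefSeq table for GRCm38.p6, which held 25 of the 33 genes. Cfi, C2, Cfb, Serping1, C4b, Masp1, Clu and C1qa had no entry. The letters searched, on both strands and with overlap between kinds allowed, were GTTAAT from the HNF1 element, CAAAGTCCA from the HNF4 element, TTGCNNAA as the core bound by C/EBP factors, and GAGGAAGT from the PU.1 element of myeloid genes. The promoters of C4bp (chr1:130661619-130661868, minus strand), Hc (chr2:35061413-35061662, minus strand) and C8a (chr4:104876399-104876648, minus strand) are shown because they hold the HNF1 letters, and those of C3 (chr17:57228137-57228386, minus strand) and C9 (chr15:6445096-6445345, plus strand) because they hold the C/EBP core. C1qc (chr4:136892915-136893164, minus strand) holds the PU.1 letters, and its neighbour C1qb (chr4:136886201-136886450, minus strand), which holds none of these, is shown beside it because the reads of these C1q genes are compared below. Capitals mark the matched letters.
C4bp: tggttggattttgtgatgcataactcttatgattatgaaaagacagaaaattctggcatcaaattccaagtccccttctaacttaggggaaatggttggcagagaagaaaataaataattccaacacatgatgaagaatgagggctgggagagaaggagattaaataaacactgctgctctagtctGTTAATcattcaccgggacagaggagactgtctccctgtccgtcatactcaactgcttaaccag
Hc: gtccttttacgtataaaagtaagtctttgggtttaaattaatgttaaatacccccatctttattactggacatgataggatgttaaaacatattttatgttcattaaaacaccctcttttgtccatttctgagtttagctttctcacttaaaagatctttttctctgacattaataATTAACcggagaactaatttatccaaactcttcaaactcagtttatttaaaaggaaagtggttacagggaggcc
C8a: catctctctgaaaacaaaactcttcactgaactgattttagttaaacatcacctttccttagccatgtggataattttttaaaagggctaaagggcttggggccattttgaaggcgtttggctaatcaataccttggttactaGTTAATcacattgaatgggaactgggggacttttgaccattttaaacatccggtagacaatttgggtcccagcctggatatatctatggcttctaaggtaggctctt
C3: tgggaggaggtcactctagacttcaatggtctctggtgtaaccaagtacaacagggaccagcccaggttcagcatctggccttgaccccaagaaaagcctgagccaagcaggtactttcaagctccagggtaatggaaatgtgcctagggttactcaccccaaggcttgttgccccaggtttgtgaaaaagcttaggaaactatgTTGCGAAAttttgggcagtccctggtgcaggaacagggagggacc
C9: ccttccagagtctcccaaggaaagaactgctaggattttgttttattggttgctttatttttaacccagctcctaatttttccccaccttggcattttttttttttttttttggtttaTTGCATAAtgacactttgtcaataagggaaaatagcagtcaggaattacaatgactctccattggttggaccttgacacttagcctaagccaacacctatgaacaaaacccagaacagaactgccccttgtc
C1qc: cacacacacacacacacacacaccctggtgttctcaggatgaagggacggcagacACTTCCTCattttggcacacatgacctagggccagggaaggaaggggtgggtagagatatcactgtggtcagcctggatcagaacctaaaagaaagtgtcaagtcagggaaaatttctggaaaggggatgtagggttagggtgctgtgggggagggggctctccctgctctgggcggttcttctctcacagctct
C1qb: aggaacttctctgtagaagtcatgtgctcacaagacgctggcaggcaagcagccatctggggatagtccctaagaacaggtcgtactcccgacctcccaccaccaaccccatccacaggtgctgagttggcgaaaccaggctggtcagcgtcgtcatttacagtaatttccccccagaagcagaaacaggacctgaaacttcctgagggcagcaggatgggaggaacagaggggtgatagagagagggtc

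The HNF1 letters occurred in 6 of the 14 hepatocyte-made genes with a promoter (C4bp, Hc, C8a, C8b, C1ra and Vtn), in 1 of 6 Kupffer- or macrophage-made genes (Cfp) and in 1 of the other 5 (C7), against 6.43% of all 32851 promoters in the table. The C/EBP core occurred in 3 of the 14 (C3, C9 and C1s1), against 9.56% of all promoters, and in none of the other members. A gene counted if any of its promoters matched, whereas the percentages are per promoter. C8g and C1s1 each have a further promoter, and that of C1s1 at chr6:124542322-124542571 holds no match. The HNF4 letters occurred in 0 of the 14, against 0.384%, and the PU.1 letters in C1qc alone of the 6 Kupffer- or macrophage-made genes, against 2.44%. A match describes letters in this window and is neither a binding site nor a cause of the values below.

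The libraries differed greatly in depth before any gene was compared. Reads assigned to genes numbered 309731, 525037 and 1491237 in DKO replicates 1, 2 and 3, against 12320487 to 15869639 in Control, and made up 2.68% to 4.74% of all reads in DKO libraries against 33.3% to 34.9% in Control. Mitochondrial genes took 62.7% of the gene reads in DKO replicate 3 and 6.27% and 14.4% in DKO replicates 1 and 2, against 6.34% to 6.57% in Control. The targeted transcripts had counts of 0, 52 and 65 (Ctnnb1) and 6, 1 and 11 (Jup) in DKO libraries, against 2945, 2896 and 2650 (Ctnnb1) and 339, 270 and 196 (Jup) in Control, and neither passed the test (edgeR adjusted p = 0.171 and 0.0847). On the scale set by each library's abundant genes, described below, Ctnnb1 was not low in DKO replicates 2 and 3, with 52 and 65 reads where 53.3 and 15.6 were expected, beside 5.03 and 12.4 from background. For Jup that scale gave 0.125, 5.05 and 1.48 reads in DKO replicates 1, 2 and 3, so its single read in DKO replicate 2 was below the expectation. Jup also lay below the background estimate of 8.66, 6.23 and 15.4 reads in every DKO library. The targeted genes therefore do not settle whether the libraries match their labels. The 10 hepatocyte markers were present in every library and summed to 0.270%, 5.86% and 0.710% of gene reads in DKO, against 12.5% to 14.1% in Control. Each direction below is one between libraries as labelled.

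Reads of the 33 complement genes made up 0.117%, 0.941% and 0.138% of gene reads in DKO replicates 1, 2 and 3, against 1.96%, 1.76% and 1.72% in Control replicates 1, 2 and 3. Every DKO library lay below every Control library, and DKO replicate 2 lay far above the other DKO libraries. Hepatocyte-made genes held 48.5%, 96.3% and 88.0% of these complement reads in DKO, against 98.5%, 98.7% and 98.6% in Control. C3, the component on which all routes meet, alone held 11.6%, 30.8% and 28.6% in DKO, against 33.7%, 31.2% and 30.9% in Control. In whole tissue, fewer cells of a type and less RNA per cell cannot be told apart.

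The test was edgeR's quasi-likelihood test on counts scaled by TMM, over all 15561 genes that passed its filter on low counts, with a gene called at a Benjamini-Hochberg adjusted p under 0.05. Of the 33 members, 32 passed the filter and 7 were called, against 44.1% of all tested genes. Of these, 3 were higher in DKO, against 31.3% of tested genes, and 4 were lower, against 12.8%. In the TMM-scaled CPM, 25 tested members had all DKO libraries below all Control libraries, against 36.4% of tested genes, and 3 had all of them above, against 34.0%, while 70.4% of tested genes did not overlap in either direction. The median log2 fold change, DKO over Control, was -2.59 over the 32 members and -0.08 over all tested genes. The called genes were the initiators C1qa and C1qc, the protease Masp1 and properdin (Cfp), all lower, and the receptors C3ar1 and C5ar1 and factor D (Cfd), all higher. The number called depended on the libraries: 24 members passed without DKO replicate 2, against 57.7% of all genes tested there, and 17 without DKO replicate 1, against 55.5%, each time 3 of them higher. With all 6 libraries, DESeq2 called 24 members, and 10262 of all 15558 genes it tested.

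**Figure D1:**
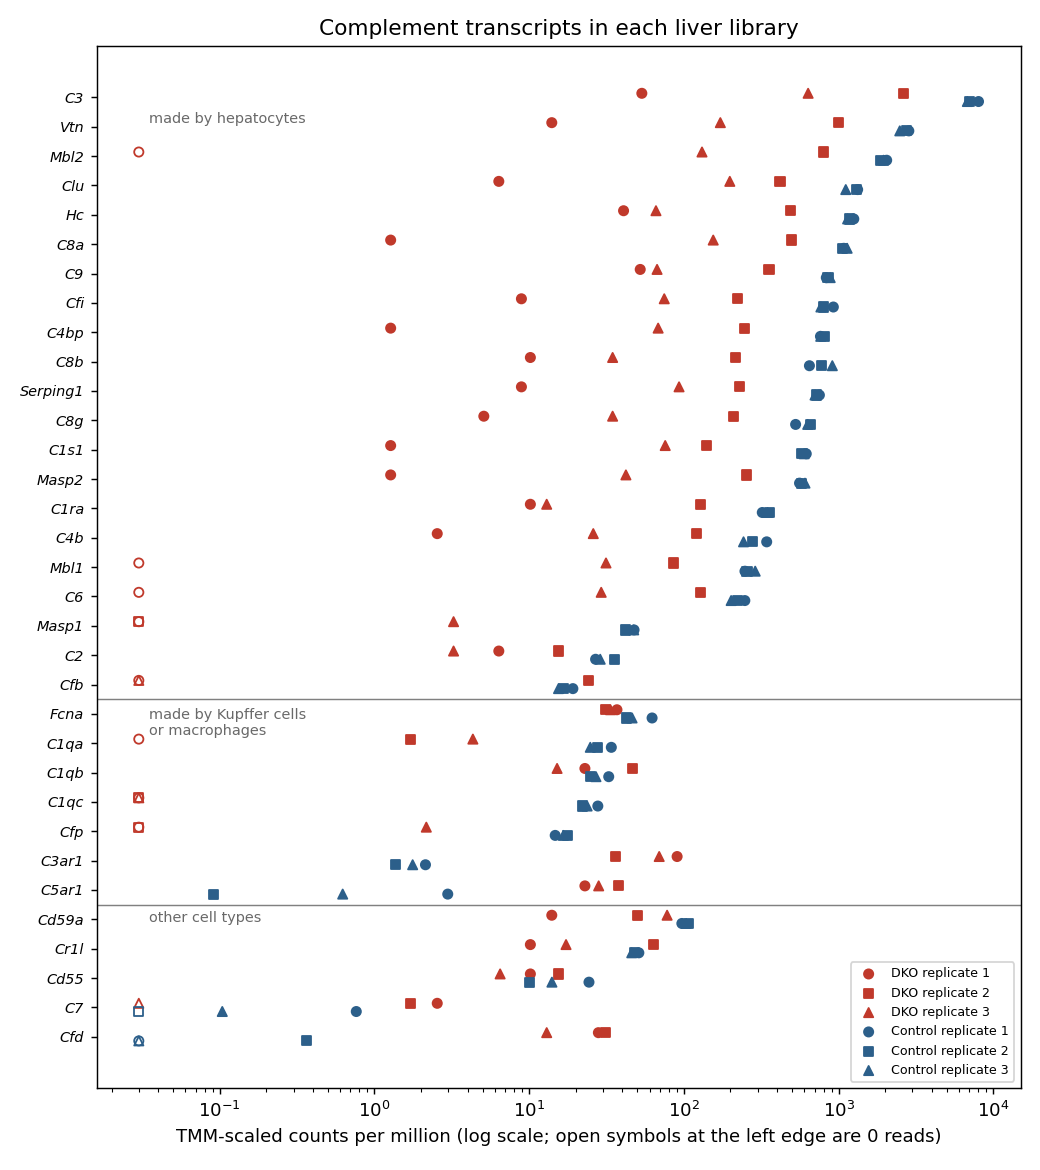
TMM-scaled CPM of the 33 complement genes (rows) in each library on a log axis, DKO libraries in red and Control libraries in blue, with 0 reads drawn as open symbols at the left edge. For 20 of the 21 hepatocyte-made genes all 3 DKO libraries lie left of all Control libraries, with DKO replicate 2 nearest to Control in most, while C3ar1, C5ar1 and Cfd lie right of Control.

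In Control liver, Mbl2 had the highest level per length, at 1792 ± 86.0 CPM per kb of exon (SD, n = 3). C3 followed at 1413 ± 128 CPM per kb, below Mbl2 by more than their spread, and Vtn at 1324 ± 90.5, which did not differ from C3 beyond it. Next came C8g at 406 ± 46.6 CPM per kb, Cfi at 374 ± 37.5, Clu at 364 ± 35.0, C9 at 335 ± 9.70, Serping1 at 311 ± 10.5, C8b at 306 ± 51.6 and C8a at 301 ± 10.2, where neighbours from C8g to C9 and from Serping1 to C8a did not differ beyond their spread. The C1q genes stood well below, at 27.7 ± 4.51 (C1qa), 25.9 ± 3.70 (C1qb) and 12.7 ± 1.51 (C1qc) CPM per kb. The receptors C5ar1 and C3ar1, at 0.479 ± 0.597 and 0.408 ± 0.0894 CPM per kb, and Cfd and C7, at 0.132 ± 0.228 and 0.108 ± 0.155, were the 4 lowest.

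Among the starters of the classical pathway, C1qa and C1qc, which encode the A and C chains of C1q, fell, while C1qb, which encodes the B chain, was not called. The difference between these genes was not tested. C1qa (ENSMUSG00000036887, chromosome 4, 136895917 to 136898803, minus strand, mm10) had 0, 1 and 4 counts in DKO libraries, against 445, 302 and 239 in Control. Its log2 fold change was -3.75 (SE 0.91, edgeR adjusted p = 0.00835). C1qc (ENSMUSG00000036896, chromosome 4, 136889804 to 136893065, minus strand, mm10) had 0 counts in every DKO library, against 364, 243 and 228 in Control, which made it at least 18.9-fold lower against a floor of 3 counts over the DKO group (edgeR adjusted p = 0.00186). C1qb had 18, 27 and 14 counts in DKO libraries, against 428, 273 and 260 in Control. Scaled for library size this was 22.9, 46.4 and 15.2 CPM in DKO and 32.7, 24.9 and 27.0 CPM in Control, so the groups overlapped, with a log2 fold change of -0.02 (SE 0.60, edgeR adjusted p = 0.980). C1qb (ENSMUSG00000036905, chromosome 4, 136880129 to 136886187, minus strand, mm10) is a neighbour of both, and no exon of the 3 genes is shared with another annotated gene.

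The make-up of C1q reads was also compared within each library, where scaling plays no part. C1qb gave 18 of 18 C1q reads in DKO replicate 1 (100%, exact 95% interval 81.5 to 100), 27 of 28 in DKO replicate 2 (96.4%, 81.7 to 99.9) and 14 of 18 in DKO replicate 3 (77.8%, 52.4 to 93.6). In Control it gave 34.6%, 33.4% and 35.8% of 1237, 818 and 727 reads. Every DKO interval lay above every Control share. C1qc gave none of the C1q reads of DKO replicates 1, 2 and 3, where the exact intervals reach up to 18.5%, 12.3% and 18.5%, against 29.4%, 29.7% and 31.4% in Control. These intervals cover counting error only, because the reads carry no molecular identifiers. The scale set by each library's abundant genes, described below, gave 0.149, 6.03 and 1.76 C1qb reads in DKO replicates 1, 2 and 3. Background gave 1.46, 1.05 and 2.61, so C1qb lay above both in every DKO library. For C1qc the scale gave 0.129, 5.24 and 1.53 reads there, and background 2.6, 1.87 and 4.63. The source of the C1qb reads was not tested.

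**Figure D2:**
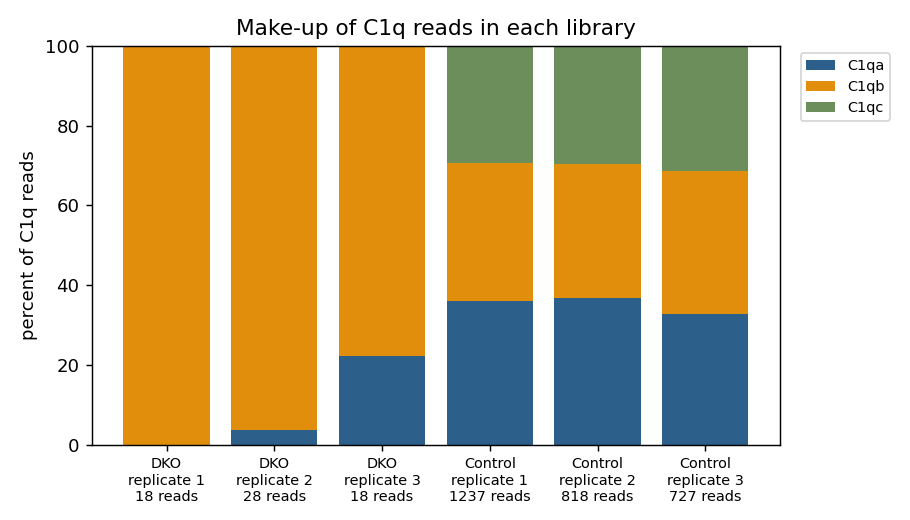
Percent of C1q reads from C1qa, C1qb and C1qc in each library, DKO libraries left of Control libraries, with the number of C1q reads under each bar. C1qb takes 77.8% to 100% of the few DKO reads and 33.4% to 35.8% of the Control reads.

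As a share of gene reads, Kupffer cell markers were lower in every DKO library. Gene reads include mitochondrial ones, which lower this share most in DKO replicate 3, where they took 62.7%, against 6.34% to 6.57% in Control. The share without mitochondrial reads was not compared. In TMM-scaled CPM, 6 of the 10 markers had all DKO libraries below all Control libraries, against 36.4% of tested genes, and 4 overlapped. None of the 10 was called, against 44.1% of all tested genes. All 10 had a log2 fold change below 0 (median -1.32), as had 7922 of the 15561 tested genes. They summed to 0.00517%, 0.0141% and 0.0102% of gene reads in DKO replicates 1, 2 and 3, against 0.0308%, 0.0224% and 0.0225% in Control. These were 16, 74 and 152 reads in DKO, where the scale set by each library's abundant genes, described below, gave 1.67, 67.8 and 19.8. Background gave 31.1, 22.4 and 55.3 expected reads there. Clec4f, a lectin found on Kupffer cells, had 0, 18 and 26 counts in DKO, against 1339, 858 and 780 in Control. In DKO replicate 1, 6 of the 10 markers were at 0, and the part of Kupffer cell number in the C1q values was not tested.

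The proteases and substrates of the classical pathway, which hepatocytes make, all had lower values in every DKO library than in every Control library, but none was called. C1ra, a copy of the C1r protease, had 8, 74 and 12 counts in DKO, against 4206, 3902 and 3342 in Control (log2 fold change -2.78, SE 1.15, edgeR adjusted p = 0.0757). C1s1, its partner protease, had 1, 81 and 70 counts in DKO, against 8092, 6367 and 5761 in Control (-3.06, SE 1.37, edgeR adjusted p = 0.0942). DKO replicate 2 held most C1ra reads of its group and DKO replicates 2 and 3 most C1s1 reads. C4b, which C1s cleaves to build the C3 convertase, had 2, 70 and 24 counts in DKO, against 4492, 3033 and 2338 in Control (-2.54, edgeR adjusted p = 0.107). C2, the protease part of that convertase, had 5, 9 and 3 counts in DKO, against 352, 391 and 277 in Control (-1.92, SE 0.71, edgeR adjusted p = 0.0530). Of the exonic length of C2 46.9% is shared with other annotated genes, and C1ra, C1s1 and C4b each have a close copy in the genome, so their reads are uncertain. The copies C1rb, C1s2 and C4a, outside the 33, were also not called, with log2 fold changes of -1.90, -1.52 and -1.88.

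In the lectin pathway Masp1 fell, and the sugar-binding proteins were not called. Masp1 (ENSMUSG00000022887, chromosome 16, 23449417 to 23520815, minus strand, mm10), the protease that starts lectin-pathway activation, had 0, 0 and 3 counts in DKO, against 624, 458 and 456 in Control. Its log2 fold change was -5.16 (SE 0.98, edgeR adjusted p = 0.00229), and it was the 1 called gene among the 21 hepatocyte-made ones. Masp2, which cleaves C4 and C2, had 1, 147 and 39 counts in DKO, against 7323, 6342 and 5833 in Control (-2.56, SE 1.45, edgeR adjusted p = 0.167). In DKO replicate 2, Masp1 gave 0 of 147 reads of both proteases, with an exact 95% upper limit of 2.48%, against 7.85%, 6.74% and 7.25% in Control. In DKO replicate 3 it gave 3 of 42 (7.14%, 1.5 to 19.5), which includes the Control shares, and DKO replicate 1 held a single read of the pair. Of the exonic length of Masp2 54.9% is shared with other genes, most of it with Tardbp on the other strand, and without a stated strand setting those reads cannot be told apart.

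The mannose-binding lectins of hepatocytes had 0, 463 and 121 counts (Mbl2) and 0, 50 and 29 counts (Mbl1) in DKO, against 26787, 20377 and 18779 (Mbl2) and 3251, 2805 and 2780 (Mbl1) in Control. Both were thus without a read in DKO replicate 1 and lower in every DKO library, with log2 fold changes of -2.66 (SE 1.82, edgeR adjusted p = 0.241) and -2.77 (SE 1.31, edgeR adjusted p = 0.110). Mbl1 made up 9.75% and 19.3% of the reads of this pair in DKO replicates 2 and 3, against 10.8%, 12.1% and 12.9% in Control. The ficolin Fcna, made by Kupffer cells, kept about the same count in all DKO libraries, at 29, 18 and 31, against 816, 466 and 445 in Control. That gave 36.9, 31.0 and 33.5 CPM in DKO and 62.3, 42.5 and 46.2 CPM in Control, lower in every DKO library but not called (log2 fold change -0.57, SE 0.51, edgeR adjusted p = 0.367). Fcna held 29 of 29 reads of the 3 lectin genes in DKO replicate 1, 3.39% in DKO replicate 2 and 17.1% in DKO replicate 3, against 2.64%, 1.97% and 2.02% in Control.

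C3 itself, on chromosome 17 (57203970 to 57228136, minus strand, mm10), had 42, 1519 and 587 counts in DKO, against 105037, 76741 and 65359 in Control. Scaled for library size, DKO replicates 1, 2 and 3 held 53.5, 2612 and 635 CPM and Control replicates 1, 2 and 3 held 8017, 6994 and 6791 CPM. The DKO values span a wide range, all below Control, and the log2 fold change was -2.72 (SE 1.58, edgeR adjusted p = 0.174). Without DKO replicate 2 C3 was called (edgeR adjusted p = 0.0367).

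Of the alternative pathway, properdin fell and factor D rose. Properdin (Cfp), which stabilises the alternative C3 convertase and is made by myeloid cells (ENSMUSG00000001128, chromosome X, 20925454 to 20931555, minus strand, mm10), had 0, 0 and 2 counts in DKO, against 193, 193 and 160 in Control (log2 fold change -4.24, SE 1.07, edgeR adjusted p = 0.0102). Factor D (Cfd), the protease that cleaves factor B and is known as adipsin from adipose tissue (ENSMUSG00000061780, chromosome 10, 79890853 to 79892655, plus strand, mm10), had 22, 18 and 12 counts in DKO, against 0, 4 and 0 in Control. Its log2 fold change was 7.40 (SE 1.24, edgeR adjusted p = 0.00122). The DKO counts compared with 1.24, 0.893 and 2.21 expected from background reads. The 5 adipocyte markers summed to 0.00517%, 0.00800% and 0.00624% of gene reads in DKO, against 0.00217%, 0.00186% and 0.00210% in Control. Every DKO share lay above every Control share. The DKO shares rest on 16, 42 and 93 reads, where 21.2, 15.2 and 37.7 were expected from background. Adipoq and Lep were at 0 in every DKO library. Plin1 was called higher (edgeR adjusted p = 0.00279), with 1, 17 and 8 counts in DKO, against 0 in every Control library. Background gave 6.25, 4.5 and 11.1 expected reads for Plin1 in DKO replicates 1, 2 and 3. The part of these markers in the Cfd value was not tested. Factor B (Cfb), the partner of C3b in the alternative convertase, had 0, 14 and 0 counts in DKO, against 251, 183 and 149 in Control. It was the only hepatocyte-made gene whose groups overlapped, since DKO replicate 2 stood at 24.1 CPM, above the 19.2, 16.7 and 15.5 CPM of Control (-1.22, SE 1.27, edgeR adjusted p = 0.438), and 79.5% of its exonic length is shared with other annotated genes.

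None of the terminal components was called, although every DKO library lay below every Control library for Hc, C6, C8a, C8b, C8g and C9. Hc, which encodes C5, had 32, 284 and 61 counts in DKO, against 16412, 12840 and 11003 in Control (-2.58, SE 1.28, edgeR adjusted p = 0.123). C9, which forms the wall of the pore, had 41, 206 and 62 counts in DKO, against 10906, 9366 and 8486 in Control (-2.44, SE 1.16, edgeR adjusted p = 0.109). These were the highest hepatocyte-made counts of DKO replicate 1 after C3. C6, which joins C5b at the start of pore assembly, had 0, 74 and 27 counts in DKO, against 3244, 2433 and 1944 in Control (-2.11, edgeR adjusted p = 0.206). C7, which follows C6, had 2, 1 and 0 counts in DKO, against 10, 0 and 1 in Control, and was the 1 member that the filter left out.

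The 3 chains of C8 did not keep their Control proportions in every DKO library. C8a had 1, 288 and 143 counts in DKO, against 14139, 11684 and 10926 in Control (-2.33, SE 1.55, edgeR adjusted p = 0.228). C8b had 8, 126 and 32 counts in DKO, against 8484, 8532 and 8761 in Control (-3.16, SE 1.31, edgeR adjusted p = 0.0755), and C8g had 4, 121 and 32 in DKO, against 6907, 7234 and 6075 in Control (-2.88, SE 1.33). C8a held 7.69%, 53.8% and 69.1% of the C8 reads in DKO replicates 1, 2 and 3, of 13, 535 and 207 reads, against 47.9%, 42.6% and 42.4% in Control. The exact 95% intervals of DKO replicates 2 and 3 were 49.5% to 58.1% and 62.3% to 75.3%, both above the Control shares. The 13 reads of DKO replicate 1 compared with 4.89, 3.42 and 2.01 reads expected from background for C8a, C8b and C8g, so its share is not read further. The intervals leave out the spread between libraries, and the difference between the groups was not tested.

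The soluble regulators were lower in every DKO library without being called. C4bp, the inhibitor that binds C4b, had 1, 144 and 63 counts in DKO, against 9997, 8916 and 7372 in Control (-2.89, SE 1.47, edgeR adjusted p = 0.131). Factor I (Cfi), the protease that destroys C3b and C4b, had 7, 129 and 69 counts in DKO, against 12110, 8740 and 7391 in Control (-3.03, SE 1.28, edgeR adjusted p = 0.0803). Serping1, the C1 inhibitor that blocks C1r, C1s and the MASPs, had 7, 133 and 86 counts in DKO, against 9840, 7861 and 6775 in Control (-2.72, edgeR adjusted p = 0.101). The pore inhibitors Vtn (vitronectin) and Clu (clusterin) had 11, 580 and 159 counts (Vtn) and 5, 243 and 183 counts (Clu) in DKO, against 37242, 29998 and 23907 (Vtn) and 17392, 14396 and 10699 (Clu) in Control. Their log2 fold changes were -2.77 (edgeR adjusted p = 0.162) and -2.59 (0.152). In all 5 regulators DKO replicate 2 was the highest and DKO replicate 1 the lowest of its group.

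The inhibitors anchored in cell membranes, which many cell types carry, were not called. Cd59a, which blocks C9 insertion, had 11, 29 and 72 counts in DKO, against 1271, 1178 and 995 in Control (-1.11, SE 0.71, edgeR adjusted p = 0.212), lower in every DKO library. Cr1l, the mouse protein called Crry that inactivates C3 and C4 convertases, had 8, 37 and 16 counts in DKO, against 670, 527 and 443 in Control (-0.70, SE 0.71, edgeR adjusted p = 0.429). Cd55, which speeds the decay of these convertases, had 8, 9 and 6 counts in DKO, against 319, 110 and 135 in Control (-0.62, SE 0.69, edgeR adjusted p = 0.473). For Cr1l and Cd55 the scaled values of the groups overlapped, and Cd59a and Cd55 each have a close copy in the genome.

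The receptors for the released peptides rose. C3ar1, the C3a receptor (ENSMUSG00000040552, chromosome 6, 122847138 to 122856161, minus strand, mm10), had 71, 21 and 64 counts in DKO, against 28, 15 and 17 in Control, although the DKO libraries held far fewer reads. That made 90.4, 36.1 and 69.2 CPM in DKO and 2.14, 1.37 and 1.77 CPM in Control, a log2 fold change of 5.20 (SE 0.67, edgeR adjusted p = 0.000690). C5ar1, the C5a receptor (ENSMUSG00000049130, chromosome 7, 16246743 to 16259540, minus strand, mm10), had 18, 22 and 26 counts in DKO, against 39, 1 and 6 in Control (4.54, SE 1.07, edgeR adjusted p = 0.00745). The Control libraries of C5ar1 scattered widely, and without Control replicate 3 its adjusted p was 0.0510. All 3 higher members, Cfd included, reached the filter's cutoff of 1.45 CPM, taken there without TMM scaling, in at most 1 Control library, so they passed it through the DKO libraries. Of the 4462 tested genes that reached it in fewer than 3 Control libraries, 89.3% were called higher. The 4 lower members reached it in all 3 Control libraries, and of the 11099 tested genes that did so 17.9% were called lower and 7.97% higher.

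Background reads were estimated from 8600 protein-coding genes nearly silent in Control, and amounted to 1.34, 0.968 and 2.40 reads per kb of exon in DKO replicates 1, 2 and 3, against 0.0878 to 0.157 in Control. For C3ar1 this gave 5.79, 4.17 and 10.3 expected reads in DKO replicates 1, 2 and 3, and for C5ar1 3.46, 2.49 and 6.16, all below the counts found. Cfd, with 4 reads over the Control libraries, is itself among the 8600 genes. The 5 neutrophil markers summed to 0.000969%, 0.00248% and 0.00134% of gene reads in DKO, against 0.000158%, 0.000043% and 0.000130% in Control, on 3, 13 and 20 reads in DKO, with Retnlg at 0 in every library. Background gave 6.96, 5.01 and 12.4 expected reads for these 5 in DKO replicates 1, 2 and 3, and 5, 2 and 4 of them were at or below it. Of them Mmp8 was called higher, with 3, 8 and 17 counts in DKO, against 1, 0 and 1 in Control (edgeR adjusted p = 0.000833). For Mmp8, 3.26, 2.35 and 5.81 reads were expected from background in DKO. Markers of other cells were also higher as a share of gene reads in every DKO library: neuron markers took 0.0249%, 0.00990% and 0.0113% in DKO, against 0.00142%, 0.00186% and 0.00175% in Control, with Snap25 and Stmn2 called higher. The neuron markers summed to 77, 52 and 168 reads in DKO, where 32.4, 23.4 and 57.8 were expected from background. Of these 5 markers, 2, 4 and 0 were at or below it in DKO replicates 1, 2 and 3. Stmn2 had 4, 5 and 60 counts in DKO, with 7.53, 5.42 and 13.4 expected from background. Bile duct markers took 0.0326%, 0.0187% and 0.0141% in DKO, against 0.00829%, 0.00620% and 0.00655% in Control, with Sox9, Epcam and Krt7 called higher and Spp1 lower. The bile duct markers summed to 101, 98 and 210 reads in DKO, where 22.7, 16.3 and 40.4 were expected from background. Krt7, with 2, 1 and 13 counts, lay below its background estimate of 9.48, 6.83 and 16.9 in every DKO library. Endothelial and stellate markers overlapped between the groups in their shares. Of the endothelial markers Pecam1 was called higher and Oit3 lower, and of the stellate markers Col1a1 higher and Ecm1 lower. The part of these markers and of background in the receptor and Cfd values was not tested. The estimate is an average over genes, and for a single gene it can be far off: Masp1 had 0 reads in DKO replicate 1, where 13.2 were expected from background.

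**Figure D3:**
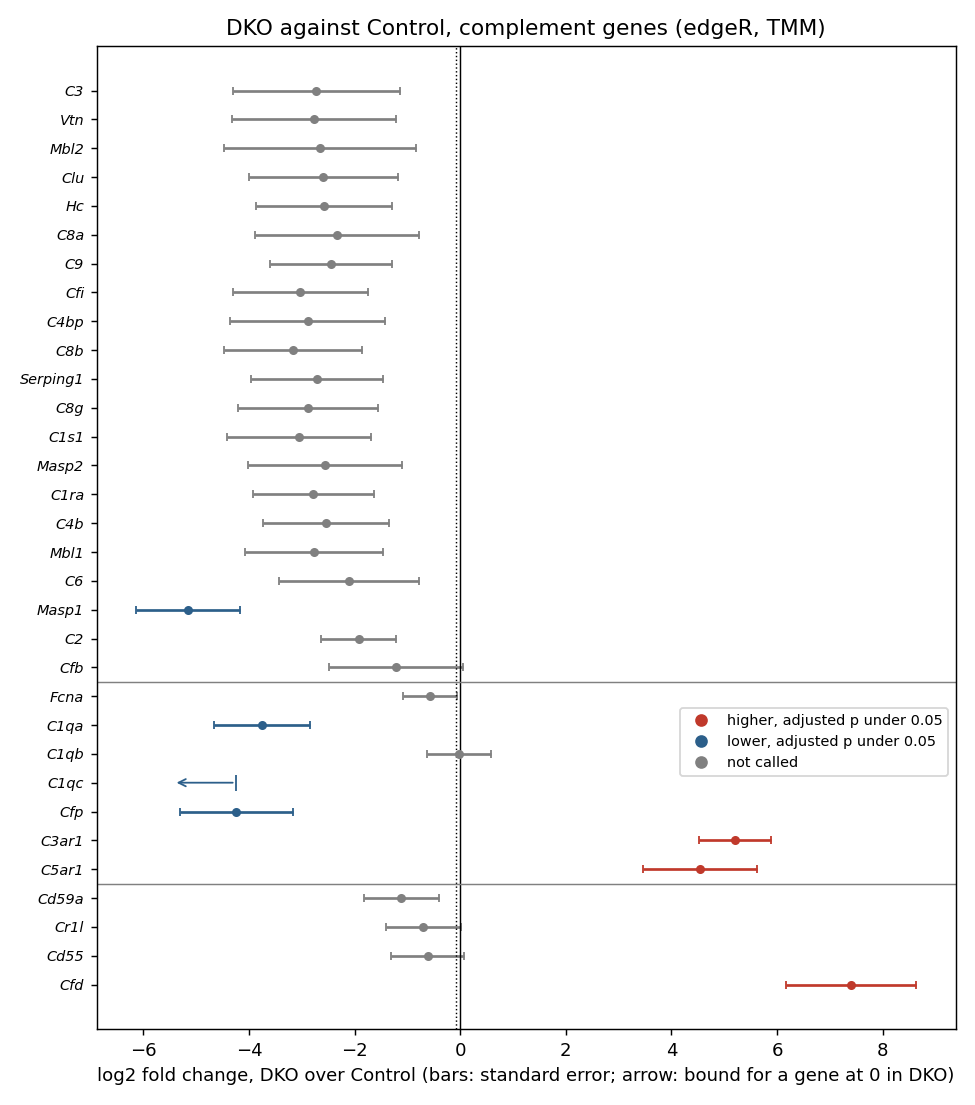
Log2 fold change, DKO over Control, of the 32 tested complement genes, with the standard error as bars, the solid line at 0 and the dotted line at the median of all tested genes (-0.08). All 21 hepatocyte-made genes lie below 0, but only Masp1 of them is called, and C1qc is drawn as a bound because it had no DKO read.

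All 21 hepatocyte-made genes had a log2 fold change below 0. The 20 besides Masp1 ranged from -3.16 for C8b to -1.22 for Cfb, with edgeR adjusted p from 0.053 to 0.438, and the median of all 21 was -2.72. That median was -4.56 without DKO replicate 2 and -1.42 with DKO replicate 2 alone against Control. Of those 20, 4 had an unadjusted p under 0.05. The 10 hepatocyte markers that are no complement genes had a median of -3.0, also with 0 called, against 20.9% of the tested genes with at least 15 CPM in Control called lower. The biological coefficient of variation fitted by edgeR was 63.9% with all 6 libraries, against 19.7% with the Control libraries only.

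How these genes stood against other liver transcripts of the same library was described by a scale from 163 abundant nuclear protein-coding genes, each with over 30000 reads over the Control libraries. The scale is the median ratio of a library's counts to the Control mean, and was 0.000465, 0.0188 and 0.00550 in DKO replicates 1, 2 and 3, against 1.11, 1.01 and 0.885 in Control. C3, Mbl2, Vtn, Clu, Hc and C8a are themselves among the 163. The 21 hepatocyte-made genes summed to 176, 4755 and 1805 reads in DKO replicates 1, 2 and 3, where this scale gives 118, 4760 and 1390 from liver transcripts and the background estimate 103, 73.8 and 183. The median ratio of observed to expected reads over the 21 was 0.779, 1.01 and 1.30 in DKO, against 1.08, 0.948 and 0.951 in Control. With the expected background taken off, it was 0, 0.976 and 0.973 in DKO. In DKO replicate 2, 19 of the 21 lay within 2-fold of the scale and in DKO replicate 3, 18, against all 21 in each Control library.

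The exceptions in DKO replicates 2 and 3 were few. In DKO replicate 2 Masp1 had 0 reads where the scale gave 9.66, and Cfb had 14 where it gave 3.66. In DKO replicate 3 Cfb had 0 where it gave 1.07, and Clu and C8a were 2.35 and 2.12 times the expectation. A scale from 566 abundant genes takes in all of the 21 except C2, C4b, C6, Cfb, Masp1 and Mbl1. On it, no ratio in DKO replicate 3 was above 1.6 and 3 genes were more than 2-fold below the expectation. In DKO replicate 1, by contrast, only 7 of 21 lay within 2-fold, 5 had no read, and 11 were at or below the reads expected from background. C3 was close to the scale in all 3, with 42, 1519 and 587 reads against 38.3, 1550 and 453 expected.

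**Figure D4:**
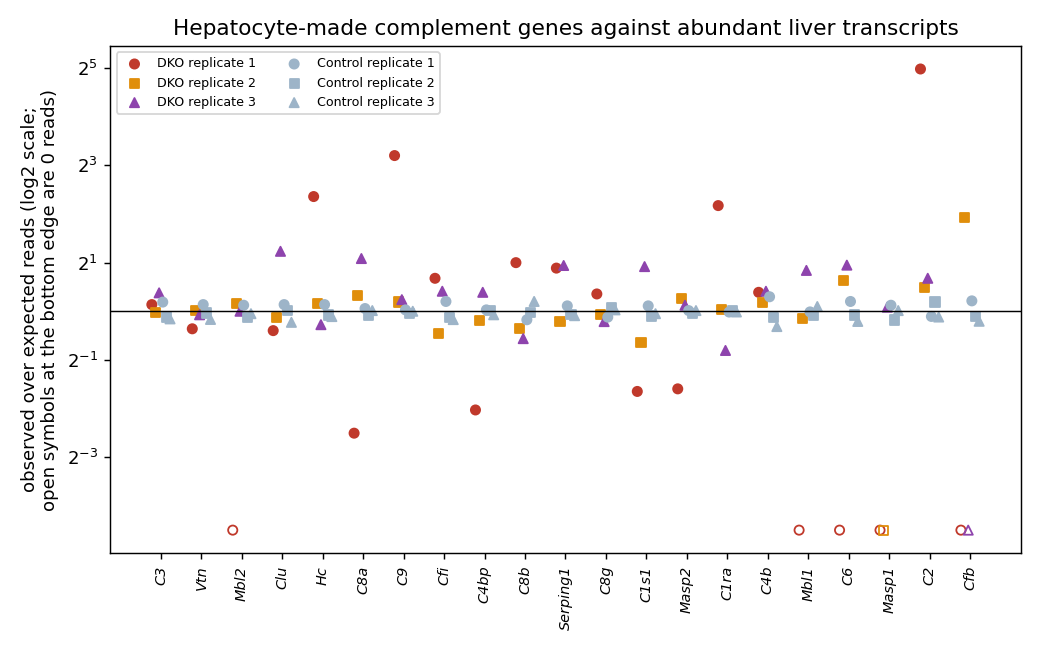
Observed reads over those expected from each library's abundant liver transcripts (log2 axis) for the 21 hepatocyte-made complement genes, with 0 reads as open symbols at the bottom edge. DKO replicates 2 and 3 scatter around 1 with medians of 1.01 and 1.30, DKO replicate 1 scatters widely, and Control replicates lie between 0.804 and 1.23.

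The Kupffer- and macrophage-made genes did not follow that scale together. In DKO replicate 2, where it gave 6.19, 6.03 and 5.24 reads for C1qa, C1qb and C1qc, 1, 27 and 0 were counted. Fcna had 18 reads in DKO replicate 2, where 10.8 were expected from liver transcripts and 1.33 from background, and 29 and 31 in DKO replicates 1 and 3, where 0.268 and 3.17 were expected from liver transcripts. Scaled on the abundant genes, which moved the median of all tested genes to 4.68, C1qc was still called lower (edgeR adjusted p = 0.0174, at least 2.29-fold). Masp1, C1qa and Cfp were not (edgeR adjusted p = 0.318, 0.901 and 0.551), with log2 fold changes of -1.51, -0.18 and -0.89. C1qb, Fcna, Cd55 and Cr1l turned to log2 fold changes of 5.40, 5.29, 4.82 and 3.61 on that scale and were called higher (edgeR adjusted p = 0.0196, 0.0278, 0.0192 and 0.0460), and of these Cr1l stayed below the median of all genes. The C1qa call was also lost without Control replicate 1 (edgeR adjusted p = 0.0521). The hepatocyte-made median became 0.28 on the abundant-gene scale, which is 4.40 below the median of all genes.

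A further 22 genes of the system outside the 33 were set beside them, of which 18 were tested, 4 called higher and 2 called lower, against 31.3% and 12.8% of all tested genes, with a median log2 fold change of -1.55. Itgam, the α chain of the complement receptor CR3 of myeloid cells, had 32, 31 and 59 counts in DKO, against 5, 7 and 11 in Control (6.17, SE 0.74, edgeR adjusted p = 0.000686). Itgb2, the β chain of that receptor, had 0, 0 and 4 counts in DKO, against 89, 41 and 29 in Control, and was not called (-1.44, edgeR adjusted p = 0.284). Cd46, a membrane inhibitor, and C5ar2, the other C5a receptor, were called higher, with log2 fold changes of 4.46 and 4.36 (edgeR adjusted p = 0.00228 and 0.0174). C5ar2 had 6, 2 and 78 counts in DKO, against 29, 22 and 4 in Control, and 4.79, 3.45 and 8.53 expected from background in DKO. DKO replicate 3 held most of the DKO reads of C5ar2. The Cd46 counts of 5, 6 and 25 in DKO, against 10, 5 and 7 in Control, compared with 10.2, 7.36 and 18.2 reads expected from background in DKO. Csmd1, a large membrane protein that inhibits complement, had 15, 1 and 60 counts in DKO, against 0 in Control, at least 373-fold higher (edgeR adjusted p = 0.00234), with 25.6, 18.4 and 45.6 reads expected from background. Itgam, Cd46 and Csmd1 reached the filter's cutoff in 0 Control libraries and C5ar2 in 2, so all 4 are among the genes of which 89.3% were called higher.

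C1qbp, a mitochondrial protein that binds C1q, and Cpn2, a subunit of the carboxypeptidase that inactivates C3a and C5a, fell by 2.43 and 3.49 on the log2 scale (edgeR adjusted p = 0.0304 and 0.0358). Cpn2 had 5, 49 and 11 counts in DKO, against 4481, 4435 and 3792 in Control. Vsig4, the complement receptor of Kupffer cells, had 0, 6 and 4 counts in DKO, against 254, 201 and 151 in Control (-1.94, edgeR adjusted p = 0.121). It was lower in every DKO library without being called.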

How the data were processed

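Liver was lysed in RLT buffer and its RNA isolated on RNeasy columns, and library preparation and sequencing were done by a company, per the labels' protocols. Each deposited table holds counts of reads per Ensembl gene ID as whole numbers. The submitters' processing notes name STAR, HTSeq and the build mm10. No version, library kit, strand setting or annotation release is given in the sources used here, so reads of overlapping genes and close copies may be split or lost.

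The sample titles gave the groups and the replicate numbers. All pairs of libraries differed by more than sampling noise. The 5 entries of each table that name no gene, holding 95.3% to 97.3% of reads in DKO and 65.1% to 66.7% in Control, stayed out of library sizes and tests. The name table gave symbols for 42462 of 43346 IDs. Exonic lengths, positions and overlaps came from a GENCODE annotation of the same build. CPM are counts scaled to a common library size by TMM.

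All 6 libraries were fitted in edgeR 4.0.16 (R 4.3.3) with TMM, filterByExpr by group (a cutoff of 1.45 CPM without TMM scaling, from its minimum of 10 reads), robust quasi-likelihood fitting and no covariate. Tests were two-sided, with Benjamini-Hochberg adjustment over 15561 genes. The standard error is the absolute log2 fold change over the square root of the F statistic. The procedure was tested on simulated counts with known changes at the library sizes found. All simulated libraries were drawn from the Control gene profile with the spread of the Control libraries and without background reads. The simulation therefore cannot show how the procedure performs with the spread and background of the DKO libraries. A group at 0 was set at 3 counts over the group. Background reads per kb were the summed reads over the summed exonic length of the 8600 protein-coding genes that had 10 or fewer reads over the Control libraries. Shares of single libraries have exact (Clopper-Pearson) 95% binomial intervals, which cover counting error only. Motif letters were searched with Python 3.11.15.

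The text names all 33 members and the called genes of the list of other complement genes, at most 6, smallest adjusted p first. Itgb2, Vsig4, C1rb, C1s2 and C4a were named after their values were seen. The members and lists were chosen with earlier results of these data known. Alternatives were DESeq2 1.42.0 and its size factors, the abundant-gene scale, the count table without a filter or with at least 1 CPM required in 3 libraries, background subtraction, the replicate number as a block, and the omission of each library in turn. DKO replicate 2 alone was added after the data were examined.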

Additional observations from a re-analysis of the deposited data

How the results depend on the processing

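C1qc lower and C3ar1 and Cfd higher were called in all 14 alternatives, with adjusted p of at most 0.0174, 0.0117 and 0.0129. The alternatives reuse the same libraries and are no independent support. C3ar1 and Cfd reached the filter's cutoff in 1 and 0 Control libraries, and 89.3% of the tested genes that reached it in fewer than 3 were called higher. All genes gave 6863 calls, 4871 higher and 1992 lower (71.0% higher), and the complement genes 7, 3 higher and 4 lower. With DESeq2's size factors 58.5% of calls were higher, with 3577 lower genes, and 17 members were called, 14 of them lower. DESeq2 gave 10262 calls, 4776 of them lower, and 24 members, 21 lower. The abundant-gene scale gave 9718 higher (99.1%) and 85 lower genes, and 7 higher members and 1 lower. Without a filter there were 16127 calls, 11477 higher and 4650 lower, and 25 members, 22 lower. Background subtraction left 2411 higher genes. DKO replicate 2 alone, its spread taken as that of Control, gave 4374 lower genes and 26 members, 23 lower. Leaving out each library gave 4710 to 9728 calls, 4130 to 5624 higher and 567 to 4492 lower, the lower counts falling to 567, 601 and 580 without Control replicate 1, 2 and 3. It gave 6 to 24 members, 2 to 3 higher and 3 to 21 lower. With 566 abundant genes, over 10000 Control reads, the median ratio of the hepatocyte-made genes was 0.522 in DKO replicate 1, 0.999 in DKO replicate 2 and 0.881 in DKO replicate 3. Most of the hepatocyte-made genes are themselves among the 566, so this scale is not independent of them. On the abundant-gene scale, which moved the median of all tested genes to 4.68, these log2 fold changes turned positive: C1ra 0.92, C2 2.98, C3 0.19, C4b 0.35, Hc 1.23, C6 0.40, C8a 0.28, C8b 0.15, C8g 0.0218, C9 1.92, Cfb 1.17, Cfi 0.29, Mbl1 0.0194, Clu 0.45, Serping1 0.63, C1qb 5.40, Fcna 5.29, Cd55 4.82, Cd59a 3.43 and Cr1l 3.61. In DKO replicate 2 alone Cfb (0.50), C1qb (0.73) and Cr1l (0.40) turned positive, and with background subtracted C1qb (0.35). Leaving out each library, C1qb ranged from -0.74 to 0.56. Except where the scaling or the number of libraries or genes itself shows it, the cause was not tested.

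The labels do not say whether equal replicate numbers pair the libraries. The deviations of same-numbered libraries correlated at 0.122, 0.084 and -0.018, and those of other pairs at -0.141 to 0.102. With 3 libraries in each group these values do not settle it. With the replicate block there were 6322 calls, 4143 higher and 2179 lower, and 9 members, 3 higher and 6 lower. The depth of the DKO libraries limits what can be seen: 8, 3 and 3 of the 33 members had no read in DKO replicates 1, 2 and 3, and 16, 5 and 8 were at or below the background estimate.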
